A study of Rattus norvegicus with 4 samples.

Results

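The genes described here remove superoxide and peroxides, keep the thioredoxin and glutathione systems reduced, or, in the case of the NADPH oxidases, produce the oxidants. They were taken as a list of 36 gene symbols, and every probe set whose symbol in the platform annotation was on the list was a member. The rule found 40 probe sets for 35 genes, of 15866 probe sets and 10411 named genes compared in all. Prdx1 had no probe set under that symbol. Of the 35 genes, 30 reached the limit for a measured signal on at least 1 array; Hmox1, Srxn1, Mt1, Cybb and Ncf1 stayed below it on all 4.

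Kidney RNA came from male rats aged 9 weeks of 2 inbred strains, the spontaneously hypertensive rat (SHR), which develops high blood pressure, and Brown Norway (BN), which does not. Animals of each strain had been exposed before birth to nicotine or to saline, the control. This made 4 groups: SHR nicotine, with RNA of 13 animals, and SHR saline, BN nicotine and BN saline, with RNA of 12 animals each. RNA was pooled in equal amounts within a group and each pool was read on 1 Affymetrix RAE-230A array, so a group has 1 value per gene and no spread between animals can be given.

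Superoxide dismutases turn superoxide into hydrogen peroxide, which catalase, the glutathione peroxidases and the peroxiredoxins then remove. Glutathione peroxidases draw on glutathione and most peroxiredoxins on thioredoxin, and the reductases Gsr and Txnrd1 restore both with electrons from NADPH. Nfe2l2 (Nrf2) is the transcription factor that raises many of these genes under oxidative stress by binding antioxidant response elements, and Keap1 holds it back. In the kidney the main oxidase outside phagocytes is Nox4, made largely by tubule cells.

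The promoter sequences of the genes with the largest strain differences among those past the threshold, Hmox2 and Nox4, are shown first, each as the 250 bases before a RefSeq start on the gene's own strand. They are from the Brown Norway reference assembly GRCr8, at chr10:11337613-11337862 on the minus strand for Hmox2, and at chr1:150313639-150313888 on the plus strand for Nox4. Capitals mark a match to TGACNNNGC, the core of the antioxidant response element, searched on both strands; in Hmox2 it lies on the opposite strand, 95 to 87 bases before the start, and the Nox4 window holds none. Hmox2 had more than 1 RefSeq window, and the core was in this one only. The SHR sequence of these windows was not used here.
Hmox2: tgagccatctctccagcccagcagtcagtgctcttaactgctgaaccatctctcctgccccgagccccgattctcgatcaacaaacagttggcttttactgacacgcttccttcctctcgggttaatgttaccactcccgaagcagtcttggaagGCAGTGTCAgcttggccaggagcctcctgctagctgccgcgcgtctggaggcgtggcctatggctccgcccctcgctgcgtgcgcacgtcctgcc
Nox4: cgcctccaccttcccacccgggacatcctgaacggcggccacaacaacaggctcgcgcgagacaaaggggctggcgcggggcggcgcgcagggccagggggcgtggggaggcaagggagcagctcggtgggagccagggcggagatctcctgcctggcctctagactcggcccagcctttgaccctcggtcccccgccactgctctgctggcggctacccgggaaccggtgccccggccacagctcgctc

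A RefSeq window of 300 bases, from 250 before to 50 after a start, was on hand for 31 of the 35 genes, and for Gpx4, Txnrd1 and Hmox2 there was more than 1. The core TGACNNNGC occurred in the windows of 11 of these 31 genes, against 13.1% of 27457 genes of the rat annotation treated alike. Base composition was not matched in this count. The sites of 7 of the other genes are shown with 10 bases on either side, read so that the core runs 5′ to 3′ in capitals. They set the 3 free letters of the core side by side for 1 dismutase, 1 peroxidase, 1 reductase, the glutathione ligase subunit, both metallothioneins and 1 oxidase subunit.
Sod2: agctaggcgcTGACCCTGCcggcagcgcc
Gpx2: attcccagaaTGACTTAGCgaaaccaggt
Txnrd1: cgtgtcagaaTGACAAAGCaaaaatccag
Gclm: tggaagacaaTGACTAAGCagaaaccgca
Mt1: gctgcgctcgTGACTGAGCgcgggctgga
Mt2A: aaagggggtgTGACTCAGCgcgggggcgt
Ncf1: actgttgagcTGACAGAGCgttggggcag

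The sites lie at chr1:50050185-50050213 for Sod2, chr6:101230028-101230056 for Gpx2, chr7:22755964-22755992 for Txnrd1, chr2:213031953-213031981 for Gclm, chr19:10833058-10833086 for Mt1, chr19:10838927-10838955 for Mt2A and chr12:28121716-28121744 for Ncf1, in GRCr8. As printed, Sod2, Gpx2 and Txnrd1 are on the plus strand and Gclm, Mt1, Mt2A and Ncf1 on the minus strand. Counted to the base of the core farthest upstream, they begin 35 bases before the start in Sod2, 13 in Gpx2, 78 in Txnrd1, 172 in Gclm, 101 in Mt1, 237 in Mt2A and 159 in Ncf1. Prdx4, Prdx5 and Nfe2l2 had the core at or after the start. Both windows of the metallothioneins also held TGCGCNC and TGCACNC, forms of the metal response element on either strand, which 15.7% and 13.2% of all genes held. A match in these windows is a description of letters only. Of the 6 genes past the strain threshold given below, Hmox2, Txnrd1 and Prdx5 held the core and Nox4, Sod1 and Gclc did not. For Hmox2 and Txnrd1, which had more than 1 window, only 1 window of each held it.

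Signal is given on the array's linear intensity scale, which is arbitrary, so levels are compared between pools for 1 probe set and never between genes. Between 58.9% and 60.7% of probe sets on an array reached the floor of 44.5, and a gene was measured in a comparison if its higher value reached 89.0. Markers of proximal tubule were measured in 12 of 12 cases and those of collecting duct in 8 of 8 with a probe set; none of 6 adrenal markers and none of 3 neutrophil markers with a probe set was. Summed proximal tubule signal was 36877.8 to 37432.9 in the SHR pools and 32007.5 to 32897.7 in the BN pools. Bright genes weigh most in this sum. Of the 12 markers, 8 had both SHR pools above both BN pools and 1 had both below. The 1 below was Cubn, at 941.2 and 983.2 in SHR against 1410.2 and 1437.5 in BN. Of all 5697 measured genes, 1710 were above in this way and 1603 below. Other summed marker signals were also apart between strains. Those of thick limb and distal tubule (7895.6 to 8225.6 in SHR against 7267.1 to 7361 in BN) and of smooth muscle and mesangium were higher in SHR. Those of collecting duct, podocytes (799.1 to 805.9 against 955.2 to 967) and adipocytes were lower. Endothelium and red blood cell sums overlapped, and phagocyte markers are given below. The part of these cell types, and of proximal tubule, in the strain differences below was not tested. Fewer cells of a type and less RNA per cell cannot be told apart in such pools, nor can a sequence difference under a probe and a difference in RNA level between strains. For beta-actin, the probe set at the 3′ end over that at the 5′ end read 1.34 and 1.39 in SHR and 1.49 and 1.54 in BN, and for Gapdh 1.11 and 1 in SHR and 1.09 and 1.07 in BN; only the first was apart between strains, and its part was not tested either.

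Between the strains, the heme oxygenase gene Hmox2, the oxidase gene Nox4, the dismutase gene Sod1, the thioredoxin reductase gene Txnrd1 and the glutathione ligase gene Gclc were higher in SHR, and the peroxiredoxin gene Prdx5 was lower. The sizes were modest, from 1.14-fold for Gclc to 1.43-fold for Hmox2. The test was limma with strain and treatment as additive terms over the 4 arrays, which asks whether the 2 pools of SHR differ from the 2 pools of BN after the mean treatment difference is removed. Of the 29 genes tested, 6 passed an adjusted p of 0.05, where 17.6% of all 5444 genes tested did; 20.7% of the members did, which is near that background. Of the members 5 were higher and 1 was lower, where 8.28% of all genes were higher and 9.33% lower. An unadjusted p under 0.05 was reached by 16 of the 29, where 30.3% of all genes reached it. The median of the 29 log2 differences was -0.034, against 0.001 over all genes, and the median size was 0.14 against 0.15. Both pools of SHR lay above or below both pools of BN for 15 of 30 measured genes, 8 above and 7 below, where 58.2% of all measured genes did not overlap.

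**Figure D1:**
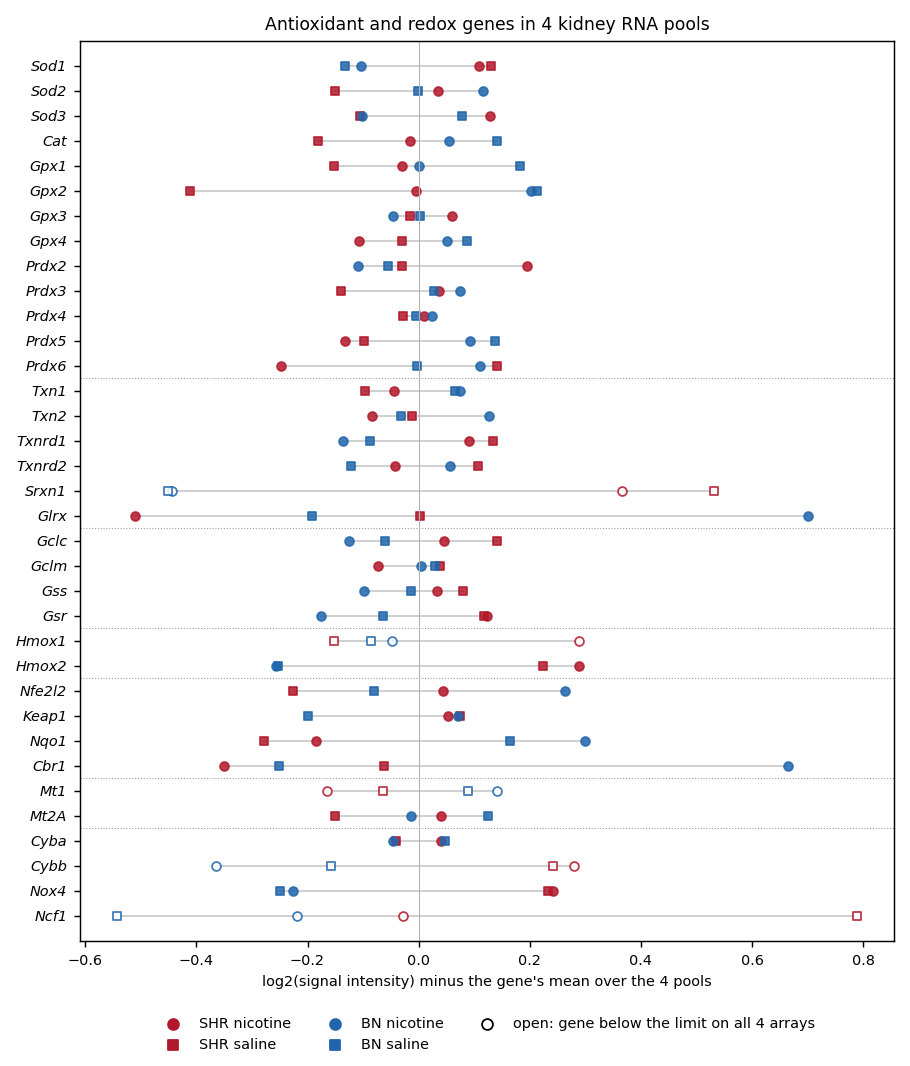
Signal of 35 antioxidant and redox genes in 4 kidney RNA pools, as log2 intensity minus the gene's mean over the pools; red is SHR, blue is BN, circles are nicotine, squares are saline, and open symbols are the 5 genes below 89.0 on all 4 arrays. Dotted lines separate the role groups; Hmox2 and Nox4 show the red and blue pools apart with little distance inside a strain, while Glrx and Cbr1 show the BN nicotine pool alone on the right.

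These calls rest on few arrays. Leaving out BN nicotine or BN saline left 0 of 29 and 0 of 30 members past the threshold, and leaving out SHR nicotine or SHR saline left 4 each time; these fits had strain as their only term, which with all 4 arrays gave 6. Without SHR nicotine the 4 were Sod1, Hmox2, Cat and Gpx2, and without SHR saline they were Sod1, Hmox2, Prdx2 and Prdx6. Over 14 alternatives, Hmox2 passed in 11, Nox4 and Sod1 in 9 each, Gclc and Prdx5 in 6 each and Txnrd1 in 4. The direction of all 6 was the same in all 14.

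Hmox2, the constitutive heme oxygenase that breaks heme down to biliverdin, carbon monoxide and iron, read 322.8 in SHR nicotine, 308.8 in SHR saline, 221.2 in BN nicotine and 221.8 in BN saline. The SHR pools were both above the BN pools, and the pools of a strain differed by at most 4.5%. The log2 difference of SHR minus BN was 0.51 (SE 0.10, 1.43-fold, adjusted p = 0.000902 with limma). It was lost without BN nicotine, without BN saline and with no filter on low genes, at 0.51 each time. The inducible form, Hmox1, read 39.9, 29.4, 31.6 and 30.8 in the same order, under the floor everywhere, so no difference in it was detectable here.

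Among the superoxide dismutases, Sod1, the copper and zinc enzyme of the cytosol, read 4332.4 and 4397.6 in the SHR nicotine and saline pools and 3739.1 and 3667.8 in the BN nicotine and saline pools. Both SHR pools were above both BN pools, with a log2 difference of 0.24 (SE 0.061, 1.18-fold, adjusted p = 0.00926 with limma). After quantile normalisation the difference was 0.16 and no longer past the threshold. Sod2, the manganese enzyme of mitochondria, read 840.7 and 738.7 in SHR and 888.9 and 819.9 in BN, and the strains overlapped. Sod3, the secreted form, read 768.8 and 653.3 in SHR and 655.2 and 742 in BN; its saline pools and its nicotine pools differed in opposite directions. The 95% intervals of the log2 difference were -0.27 to 0.04 for Sod2 and -0.16 to 0.21 for Sod3.

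Catalase and 3 of the 4 glutathione peroxidases had both SHR pools below both BN pools, by amounts that did not pass the test. This order was common, as 1603 of all 5697 measured genes had it. Catalase, Cat, the peroxisomal enzyme, read 2886.2 and 2571.4 in SHR and 3030.5 and 3217.3 in BN, with SHR saline the lowest. Its log2 difference was -0.20 (SE 0.068), with an adjusted p of 0.0502 by limma that lay on the threshold. Gpx1, the glutathione peroxidase of cytosol and mitochondria, read 4107.1 and 3773 in SHR against 4196.7 and 4758 in BN, without overlap, at -0.18 (adjusted p = 0.076 with limma). Gpx4, which reduces lipid peroxides in membranes, also did not overlap, at 1920.8 and 2026.7 against 2142.7 and 2198.1, with a log2 difference of -0.14 (adjusted p = 0.15 with limma).

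Gpx2, best known as the glutathione peroxidase of the gut epithelium, read 129.8 and 97.9 in SHR against 149.8 and 151 in BN. The SHR saline pool was the lowest and stood 1.54-fold under BN saline, the only 1 of 29 measured members at least 1.5-fold apart between strains under saline, where 7.39% of genes were and 3.75% were lower. Over both treatments the log2 difference was -0.42 (SE 0.148, adjusted p = 0.0568 with limma). Gpx3, the secreted peroxidase of plasma, which the proximal tubule makes, read 9050.7 and 8584.2 in SHR and 8412.7 and 8696.1 in BN. The strains overlapped, and the 95% interval of the difference was -0.08 to 0.17.

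Prdx5, a peroxiredoxin of mitochondria, peroxisomes and cytosol, was the only member lower in SHR past the threshold. It read 1209.9 in SHR nicotine and 1238.8 in SHR saline against 1414 in BN nicotine and 1458.9 in BN saline. The pools of a strain differed by at most 3.2%, and the strains did not overlap; the log2 difference was -0.23 (SE 0.067, 1.17-fold, adjusted p = 0.0196 with limma). After cyclic loess and after quantile normalisation it was -0.22 and -0.20 and no longer past the threshold. Prdx2, the cytosolic form abundant in red blood cells, read 1046.4 and 895.1 in SHR and 848 and 880.4 in BN, both SHR pools higher, at 0.16 (adjusted p = 0.157 with limma). Of 4 red blood cell markers with a probe set, 2 were measured: Hbb read 824.5 in SHR nicotine, 1111.7 in SHR saline, 1310.6 in BN nicotine and 876.9 in BN saline. Slc4a1, the anion exchanger also made in the collecting duct, read 245.4, 212.2, 180.2 and 162 and was higher in SHR (log2 difference 0.42, SE 0.11, adjusted p = 0.013 with limma). Hbb was lowest and Slc4a1 highest in SHR nicotine, where Prdx2 was highest; the summed signal of the list was 1133.5 to 1371.3 in SHR and 1101.1 to 1561.3 in BN, and its part in the Prdx2 values was not tested.

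The remaining peroxiredoxins overlapped between strains. Prdx3, the mitochondrial form, ranged from 675.9 to 784.4 over the 4 pools, and Prdx4, the form of the endoplasmic reticulum, from 213.7 to 221.7, the narrowest range in proportion of any measured peroxiredoxin. Prdx6, which uses glutathione and also acts as a phospholipase, read 1091.1 in SHR nicotine against 1428.6 in SHR saline, 1400.1 in BN nicotine and 1294.1 in BN saline. The SHR nicotine pool alone was low. The SHR nicotine value was 1.31-fold under SHR saline and 1.28-fold under BN nicotine, below the 1.5-fold used here to count differences between single pools.

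In the thioredoxin system, the cytosolic reductase gene Txnrd1 was higher in SHR and its substrate Txn1 read lower. Txnrd1 read 758.7 and 781.5 in SHR and 648.6 and 671 in BN, a log2 difference of 0.22 (SE 0.074, 1.17-fold, adjusted p = 0.0419 with limma). A second probe set of the gene read 469.2 and 468.3 in SHR against 444.3 and 472.3 in BN and overlapped, and with the mean over both probe sets the difference was 0.13 and not past the threshold. Txn1, thioredoxin itself, read 2819.9 and 2718.7 in SHR and 3060.1 and 3043.2 in BN, without overlap, at -0.14 (adjusted p = 0.13 with limma). The mitochondrial pair Txn2 and Txnrd2 overlapped, with ranges of 674.2 to 779.5 and 125.2 to 146.7. Srxn1, sulfiredoxin, which restores overoxidised peroxiredoxins, read 74 and 83 in SHR and 42.2 and 42 in BN. All 4 values are below the limit, so the gene was not tested.

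Glrx, glutaredoxin, which uses glutathione to release bound thiols, had the widest range of the measured members. Its main probe set read 78.9 in SHR nicotine, 112.5 in SHR saline, 182.6 in BN nicotine and 98.3 in BN saline, so the order of the strains turned over between treatments. A second probe set read 95.9, 86.8, 118.2 and 115.1, with both SHR pools below both BN pools and little difference between treatments. Both probe sets were lower in SHR nicotine than in BN nicotine, and they differed in how far BN nicotine stood above BN saline. They disagreed in direction in the other 2 comparisons. Under saline the log2 difference of SHR minus BN was 0.19 on the main probe set and -0.41 on the second. In SHR the log2 ratio of nicotine over saline was -0.51 and 0.14. Averaged over treatments the log2 difference was -0.51 (SE 0.218, adjusted p = 0.118 with limma).

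**Figure D2:**
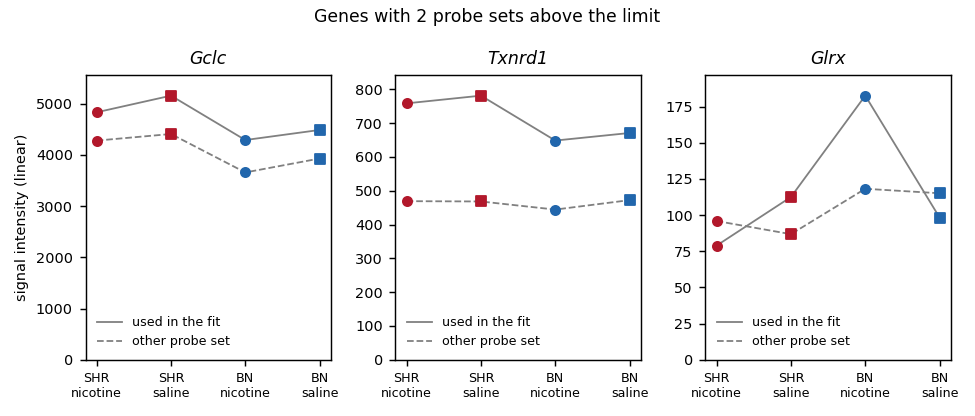
Signal intensity on a linear axis from 0 in the 4 pools for the genes with 2 measured probe sets; solid lines join the probe set used in the fit and dashed lines the other, and each panel has its own scale. For Gclc both lines fall from SHR to BN, for Txnrd1 the dashed line is nearly level, and for Glrx only the solid line peaks at 182.6 in BN nicotine.

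Of the genes that make and reduce glutathione, Gclc, the catalytic subunit of the ligase that sets the rate of synthesis, was higher in SHR. It read 4833.9 in SHR nicotine, 5159.1 in SHR saline, 4291.8 in BN nicotine and 4488.9 in BN saline, a log2 difference of 0.19 (SE 0.061, 1.14-fold, adjusted p = 0.037 with limma). Its second probe set separated the strains in the same way, at 4280.8 and 4409.9 against 3658.6 and 3930.8. After quantile normalisation the difference was 0.08 and not past the threshold. Gclm, the modifier subunit, ranged from 1888.2 to 2039.7 with overlapping strains, at -0.03 and a 95% interval of -0.17 to 0.10. Gss, which completes glutathione, read 1695.6 and 1751.6 in SHR against 1548.7 and 1641 in BN, and Gsr, which reduces it again, 354.1 and 352.9 against 287.9 and 310.9. Both were without overlap and higher in SHR in both pools, at 0.11 and 0.24, with adjusted p-values of 0.262 and 0.0828 by limma.

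Nfe2l2 read 536.3 in SHR nicotine, 444.4 in SHR saline, 624.1 in BN nicotine and 491.5 in BN saline, and the strains overlapped (log2 difference -0.18, adjusted p = 0.13 with limma). Keap1 read 110.8, 112.4, 112.2 and 93 in that order, with the BN saline pool alone low; its second probe set, at 49.3 to 52.9, was below the limit. Nqo1, the quinone reductase widely used as a readout of Nfe2l2, read 77.1 and 72.3 in SHR against 107.9 and 98.2 in BN. The SHR values were under the limit for a measured signal and the BN values above it, so the gene entered the test only through BN. The log2 difference was -0.46 (SE 0.178, adjusted p = 0.0789 with limma). Cbr1, a carbonyl reductase, read 58.6, 71.5, 118.4 and 62.7, so only the BN nicotine pool reached the limit; it was not tested between strains and is described with nicotine. Under nicotine, Glrx and Cbr1 were the members at least 1.5-fold apart between strains, 2.32-fold and 2.02-fold lower in SHR, 2 of 30, where 7.6% of genes were at least 1.5-fold apart and 3.92% were lower. Both were measured in this comparison only through BN nicotine: their SHR values were above the floor and under the limit.

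Metallothioneins bind zinc and copper and scavenge radicals. Mt2A read 4652 and 4077.9 in SHR and 4480 and 4936.1 in BN, overlapping, with a 95% interval of -0.26 to 0.04 for the log2 difference. Mt1 read 69.9 and 75 in SHR and 86.4 and 83.3 in BN, all below the limit. The genes of this family are near-identical, and 1 further probe set that the annotation gives to several genes at once was not used, so these values are uncertain as to which metallothionein they read.

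Of the NADPH oxidase genes, Nox4, whose product releases hydrogen peroxide, was higher in SHR at 249.5 in the nicotine pool and 248 in the saline pool against 180.4 and 177.4 in BN. The pools of a strain differed by 0.6% and 1.7%, and the log2 difference was 0.48 (SE 0.110, 1.39-fold, adjusted p = 0.00395 with limma). Leaving out any 1 of the 4 arrays kept it between 0.46 and 0.49 but no longer past the threshold. Cyba, the p22phox subunit that Nox4 and the phagocyte oxidase share, did not follow it: it read 956.7 and 903.7 in SHR and 900.2 and 960.9 in BN, with a log2 difference of 0.00 and a 95% interval of -0.15 to 0.15. A second Cyba probe set was below the floor on all 4 arrays.

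The phagocyte oxidase genes were near or below the limit. Cybb, the catalytic subunit gp91phox, read 80.5 and 78.4 in SHR and 51.5 and 59.4 in BN, and Ncf1, its cytosolic activator, 19.3 and 34 against 16.9 and 13.5; neither was tested. Among the phagocyte markers, 5 of the 6 tested were higher in SHR past the threshold, where 8.28% of all genes tested were. Lyz2 (1742.4 and 1507.3 against 1044.3 and 869.2), Cd74 and Fcer1g were above the limit in all 4 pools, while C1qa and C1qc were above it in SHR only and so entered the test through the strain in which they were high. Of 15 phagocyte markers with a probe set, 7 were measured. Both SHR pools were above both BN pools for 10 of the 15 and below for none. The 10 include Cd68, Aif1 and C1qb, which were below the limit on all 4 arrays, and Ptprc and Itgam, which were under the floor on all 4. Of the 7 measured markers, Laptm5 and Csf1r overlapped between strains. Among all 5697 measured genes, 1710 had both SHR pools above both BN pools, a count that holds no genes below the limit. The summed signal of the 15 markers was 4001.7 to 4632.7 in SHR and 3022.8 to 3281.9 in BN. Their part in the Cybb and Ncf1 values was not tested. Rac2, the small GTPase of the phagocyte oxidase, was also higher in SHR, at 104.5 and 83.1 against 65.5 and 50.7 (log2 difference 0.69, SE 0.20, adjusted p = 0.0186 with limma). It reached the limit in SHR nicotine alone, so that it too was tested only through SHR.

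**Figure D3:**
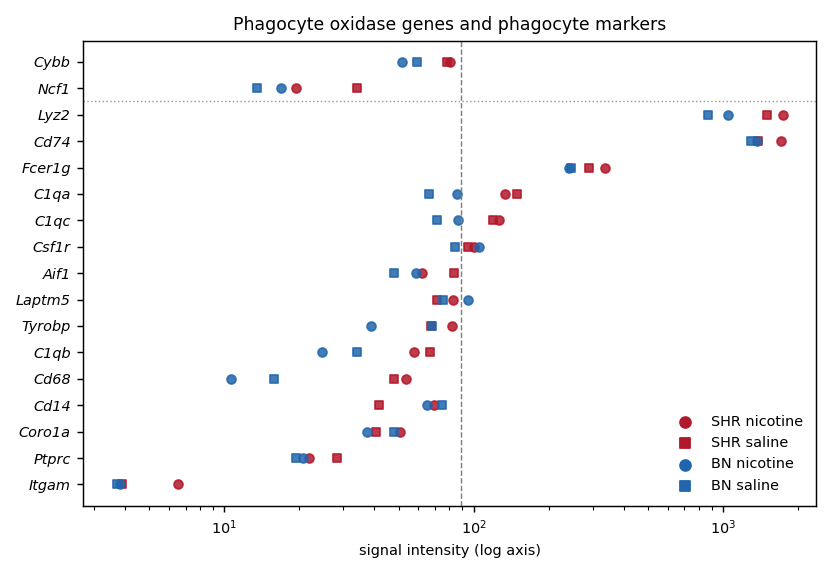
Signal intensity, on a log axis, of the oxidase genes Cybb and Ncf1 and of 15 phagocyte markers in the 4 pools, with colours for strain and shapes for treatment; the dashed line is the limit of 89.0. For Cybb, Ncf1, Lyz2, C1qa and C1qc the red SHR pools lie to the right of the blue BN pools, and most of the markers lie left of the limit.

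Prenatal nicotine, averaged over the strains, moved no member past the threshold. With limma, 0 of 29 members had an adjusted p under 0.05, as did 0 (0%) of all 5363 genes tested; 1 member, Nfe2l2, had an unadjusted p under 0.05, where 5.31% of all genes did. The members' median log2 difference of nicotine minus saline was 0.025 against 0.002 over all genes, and their median size 0.046 against 0.072. Nfe2l2 was higher under nicotine in both strains, at 536.3 against 444.4 in SHR and 624.1 against 491.5 in BN, a mean log2 difference of 0.31 (SE 0.079, adjusted p = 0.301 with limma). With the floor at the 60th percentile its adjusted p was 0.0358, the only setting in which it passed. The summed signal of the phagocyte markers was also higher under nicotine in both strains, at 4632.7 against 4001.7 in SHR and 3281.9 against 3022.8 in BN, and its part in the Nfe2l2 values was not tested.

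Members often named as targets of Nfe2l2, picked with their values known, stood as follows in the same average. Gclc and Gclm were at -0.08 and -0.07, with 95% intervals of -0.21 to 0.05 and -0.20 to 0.07. Txnrd1 was at -0.05 and Gsr at -0.05, with intervals of -0.20 to 0.11 and -0.25 to 0.14. Nqo1 was at 0.12 with an interval of -0.25 to 0.47. Its saline mean was under the limit and its nicotine mean just above it (6.4 and 6.51 on the log2 scale). Nqo1 was thus tested only through nicotine. The targets Hmox1 and Srxn1 were too dim to test. Gpx2 was at 0.20 with an interval of -0.12 to 0.51, and Cbr1, untested in the average, is given with the single pools. All of the intervals printed for these 6 genes include 0. The Nfe2l2 estimate has its own error, with a 95% interval of 0.14 to 0.48, so the intervals alone do not compare it with these genes. The difference between Nfe2l2 and these genes was not itself tested.

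**Figure D4:**
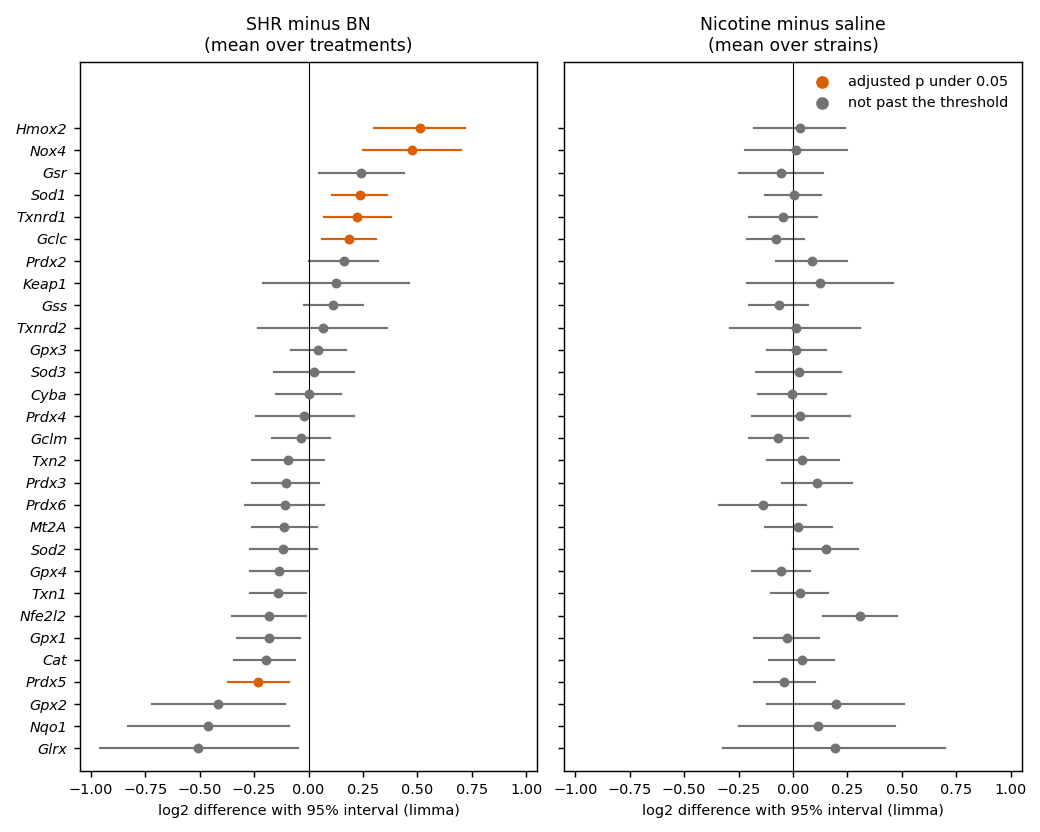
Log2 difference with its 95% interval from limma for each tested member, SHR minus BN averaged over treatments on the left and nicotine minus saline averaged over strains on the right; orange marks an adjusted p under 0.05. On the left 5 genes lie above 0 and Prdx5 below it past the threshold, and on the right none does, with Nfe2l2 at 0.31 farthest from 0.

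Within a strain, 1 nicotine pool is set against 1 saline pool, so the ratios carry no test. In SHR, 0 of 28 measured members were at least 1.5-fold apart, where 1.86% of genes were; the widest were Glrx at -0.51, Gpx2 at 0.41 and Prdx6 at -0.39 on the log2 scale. In BN, 2 of 30 were, both higher under nicotine, where 1.43% of genes were and 0.727% were higher. These were Cbr1, at 118.4 against 62.7 (1.89-fold), and Glrx, at 182.6 against 98.3 (1.86-fold). For both, the BN nicotine pool was the highest of the 4, and the other 3 pools of Cbr1 lay between 58.6 and 71.5. Cbr1 was thus measured in this comparison only through BN nicotine, the pool in which it was high. The second Glrx probe set gave 118.2 against 115.1 in BN, a log2 ratio of 0.04, and the mean of both probe sets gave 0.47.

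Of 28 members measured in both strains, 12 had the same direction of the nicotine ratio in both and 16 the opposite, which is 57.1%, where 51.3% of 5139 genes measured in both were opposite. The SD of the members' log2 ratios was 0.19 in SHR and 0.26 in BN, against 0.21 and 0.19 over all measured genes. The BN value includes Cbr1 at 0.92, which was not measured in SHR, and Glrx at 0.89. The 13 measured superoxide and peroxide genes, which include neither, had an SD of 0.19 in SHR and 0.09 in BN. Members higher in both strains included Nfe2l2, Sod2 (0.19 and 0.12) and Prdx3 (0.18 and 0.05). Members of opposite direction included Sod3 (0.24 in SHR and -0.18 in BN), Gpx1 (0.12 and -0.18) and Prdx6 (-0.39 and 0.11). Glrx was the only one opposite by at least 0.32 on the log2 scale in each strain, and that rests on 1 of its 2 probe sets. At this smaller size, members apart numbered 6 of 29 between strains under saline, where 24.3% of genes were, and 6 of 30 under nicotine, where 24.5% were. Between treatments they numbered 3 of 28 in SHR, where 10.7% of genes were, and 3 of 30 in BN, where 8.44% were.

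**Figure D5:**
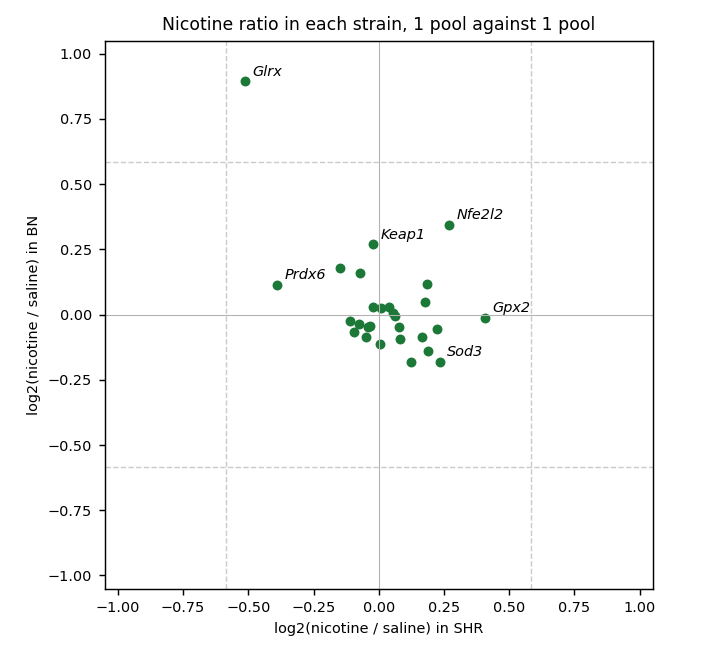
Log2 ratio of nicotine over saline in SHR (horizontal) and in BN (vertical) for the 28 members measured in both strains, 1 pool against 1 pool each; dashed lines mark 1.5-fold. Nfe2l2 lies in the upper right, Glrx alone in the far upper left at -0.51 and 0.89, and the other members cluster around 0.

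Other genes of the same pathways were taken from 8 lists, and the share past the strain threshold is to be read against 17.6% of all genes. Of 10 genes tested that supply NADPH, 3 were lower in SHR and 0 higher: Nnt, the mitochondrial transhydrogenase (1335 and 1400.2 against 1680.6 and 1684.9), H6pd at a log2 difference of -0.39 and Mthfd1 at -0.28. Of 17 genes of glutathione turnover and transport, 3 were higher and 2 lower. The brush border peptidases Dpep1 and Anpep, which act on glutathione breakdown products, were 1.70-fold and 1.68-fold higher, while Cbs, which starts cysteine supply from homocysteine, was 1.52-fold lower and the glyoxalase Glo1 1.42-fold lower. Of 16 further thioredoxin fold and sulfoxide repair genes only Txndc17 passed, 1.30-fold higher.

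Of 16 other targets and partners of Nfe2l2, 3 were lower and 1 higher in SHR. The lower ones were the carbonyl reductase Cbr4 (-0.58), the glutathione transferase Gstp1 (-0.57) and the aldehyde reductase Akr7a2 (-0.28), and the higher one was the autophagy receptor Sqstm1 (0.25). Of 8 other oxidant sources tested, 2 were higher, Rac2 and the peroxisomal oxidase Hao2 (0.24), and 1 lower, the xanthine oxidoreductase gene Xdh, at 420 and 393.3 in SHR against 662.5 and 648.1 in BN (1.61-fold). Of 12 heme and iron genes, the transferrin receptor Tfrc was higher (0.26), and Aco1 (-0.40) and the heme synthesis enzyme Ppox (-0.41) were lower. Of 16 selenium and selenoprotein genes 3 were higher, Sephs1 (0.55), the uptake receptor Lrp2 (0.29) and Scly (0.22), and of 8 metal response genes the copper chaperone Atox1 was higher (0.33). For prenatal nicotine no gene of these 8 lists passed the limma threshold. An unadjusted p under 0.05 was reached by 1 of 16 genes tested for glutathione turnover, 2 of 11 for heme and iron and 1 of 9 for metal response. It was reached by 0 of 10 genes for NADPH supply, 0 of 16 for thioredoxin fold and sulfoxide repair and 0 of 16 for Nfe2l2 targets. Other oxidant sources had 0 of 7 and selenium genes 0 of 16. Of all genes tested, 5.31% reached it.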

How the data were processed

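The deposited values are signal intensity on a linear scale, made by the authors in MAS5 according to the submitters' processing notes, with settings not given in the sources used here. They were used as deposited, without the 57 control probe sets. Gene names come from the platform annotation, updated through the gene identifier, and of several probe sets for a gene the brightest on average was taken. Intensities under 44.5, the 40th percentile, were raised to it before log2, and a gene was measured at 2 times that floor (89.0). The averages were fitted with limma 3.58.1 in R 4.3.3 (additive strain and treatment, eBayes with an intensity trend, Benjamini-Hochberg over all genes at 0.05), with 1 residual degree of freedom and 19.33 (strain) or 13.35 (nicotine) prior ones borrowed from other genes. Each group is 1 pool, so the residual is how far the strain difference changed between treatments, weighted with the same quantity in other genes. The p-values therefore measure no spread between replicate pools or between animals, and precision is limited by the number of arrays. The procedure was tested on simulated data. Promoter sequences are RefSeq's, assembly GRCr8. The members and lists were chosen with earlier results of these data known. By rule, all 4 values were written out for members past the threshold, at least 1.5-fold apart, with disagreeing probe sets or with the largest strain difference of their role; those of other members were added to show their order, and up to 4 called genes of each pathway list were named. The protein sequences planned for display were not used here. Alternatives changed the floor, normalisation, probe set summary, filter, variance model, model terms, arrays and fold.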

Additional observations from a re-analysis of the deposited data

Results flagged for a closer look

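The nicotine ratio of Glrx was opposite in the strains: the log2 ratio in SHR minus that in BN was -1.41, from 78.9 against 112.5 in SHR and 182.6 against 98.3 in BN. With 1 pool per group this difference was not tested. The second probe set of the gene gave a log2 ratio of 0.14 in SHR, where the first gave -0.51, and of 0.04 in BN, where the first gave 0.89.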

How the results depend on the processing

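The count of members past the strain threshold was 6. Leaving out the filter on low genes gave 0, quantile normalisation 2, a variance model with no intensity trend 3, and leaving out 1 array from 0 to 4. For nicotine averaged over strains the count was 0 and became 1 under the 60th percentile floor; it was 0 when any 1 array was left out. Members at least 1.5-fold apart between strains under saline numbered 1, against 3 under the 20th percentile floor, 0 under the 60th, 0 when a pseudocount of 16 replaced the floor, 2 without the filter and 6 at a log2 size of 0.32. Under nicotine they numbered 2, against 4 under the 20th percentile floor, 0 under the 60th, 4 without the filter and 6 at the smaller size. In SHR the nicotine count was 0, against 1 under the 20th percentile floor and 3 at the smaller size; in BN it was 2, against 0 under the 60th percentile floor and 1 with the mean over probe sets. For all of these the cause was not tested. No member past the strain threshold changed direction in any of the 14 alternatives. Among values not past the threshold, the sign of the strain difference changed in 16 cases, 12 of them when an array was left out and 4 for Prdx4, Gclm and Cyba, and that of the nicotine difference in 36, all when an array was left out. Animals could not be paired between groups because each group is 1 pool. Pools were matched only through the additive terms, strain within treatment and treatment within strain. For members under the limit in both groups of a comparison, signal over background was too low for a ratio.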
